A study of Mus musculus with 8 samples.

Results

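The genes of DNA replication and S phase were followed in RAW264.7 cells, a mouse macrophage line, during the first 120 min after stimulation with lipopolysaccharide (LPS). Unlike most macrophages in tissue, this line divides in culture. The genes were taken by symbol from the table of read counts per gene: 39 were listed, and all 39 were found among the 23143 genes of the table. The series held 8 libraries, 1 for every 15 min from 0 to 90 min and 1 at 120 min, of which the 0 min library was from unstimulated cells and the other 7 from cells given LPS of E. coli serotype O111:B4 at 100 ng/ml. The labels name no allele, transgene or second agent, and they give the RNA fraction as cytoplasmic, whereas the text of the study calls it total RNA.

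Before S phase, the origin recognition complex (ORC) together with Cdc6 and Cdt1 loads the MCM helicase onto DNA, a step called licensing. Cyclin E with its kinase and the E2F transcription factors then drive entry into S phase, when Cdc45 and the GINS complex switch the helicase on and the polymerases copy both strands. Many of these genes are transcribed in a wave at the border of G1 and S phase, and E2F factors are known to bind a short GC-rich motif in their promoters.

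Total counts per library lay between 100250892 and 159077286. Every one of the 39 genes passed the filter of a mean of at least 10 normalized counts (counts divided by a median-of-ratios size factor), as 12170 of all genes did. The LPS response was present in the libraries: Tnf was 30.3-fold above the 0 min library at 45 min and 40.3-fold at 120 min, and the NF-kB inhibitor Nfkbia 7.25-fold and 7.60-fold. The 7 macrophage markers summed to 5476 to 6689 CPM (counts scaled to the library total) in each library and the 5 markers of T cells, B cells, fibroblasts, epithelium and endothelium to 0.0189 to 0.0798, with the fibroblast marker Col1a1 and the epithelial marker Epcam at 0 counts in all 8. The precursor of ribosomal RNA, Rn45s, took 8.18% to 9.11% of the counts at 0, 30, 60 and 120 min and 13.0% to 20.5% at 15, 45, 75 and 90 min.

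With 1 library per time point there was no replicate check on a single time. The test was therefore a straight line in time over all 8 libraries, fitted with edgeR's quasi-likelihood test to all genes, in which deviations from the line serve as the error (6 residual degrees of freedom). A gene was called at a Benjamini-Hochberg adjusted p under 0.05. A curved time course counts as noise in this test, and since nothing says whether the 8 samples came from separate cultures, its p-values measure only the scatter of these libraries around a line. Ratios between 2 libraries are given with an exact 95% interval that covers counting error only.

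The replication genes drifted down, most of them by little, and a few fell steeply. Of the 39 genes, 18 fell and 1 rose, while over all genes tested 23.7% fell and 23.7% rose. The median slope of the 39 was -0.099 log2 units per hour, beside -0.002 over all genes, for which the quartiles were -0.163 and 0.159. At 60 min the median log2 ratio to 0 min was -0.032 (all genes -0.003), and at 120 min it was -0.217 (all genes -0.01). The 39 genes together took 0.766% of all counts other than Rn45s at 0 min, 0.724% at 60 min and 0.58% at 120 min. In these bulk samples, fewer cells in S phase and less of each mRNA per cell cannot be told apart. With libraries scaled to their total counts in place of size factors, 25 of the 39 fell and 0 rose, and over all genes 36.7% fell and 9.89% rose; that scaling moved the median slope of all genes to -0.133 and that of the 39 to -0.232, which left the gap between the medians near that of the size factors. The excess of falling genes depended on the model of time: with the libraries before 60 min set against the later ones, 6 of the 39 fell beside 15.2% of all genes, and with time in log minutes 12 fell beside 18.3%.

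Most of the decrease came in the second hour. The lowest count of the course lay in the 120 min library for 26 of the 39 genes, beside 27.4% of all genes. At 120 min 35 were lower than at 90 min, beside 50.7% of all genes. Between 0 and 60 min, 23 of the 39 were lower at the later time (all genes 50.5%), and between 60 and 120 min 37 were (all genes 49.2%). The 120 min library carried part of the calls: without it 11 genes fell and 3 rose, beside 19.8% and 19.7% of all genes. Mcm2, Mcm5, Mcm6, Gins1, Gins2, Rfc3, Rpa1 and Cdc45 then lost their calls, and Orc1, Pola1 and Slbp were called rising.

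**Figure D1:**
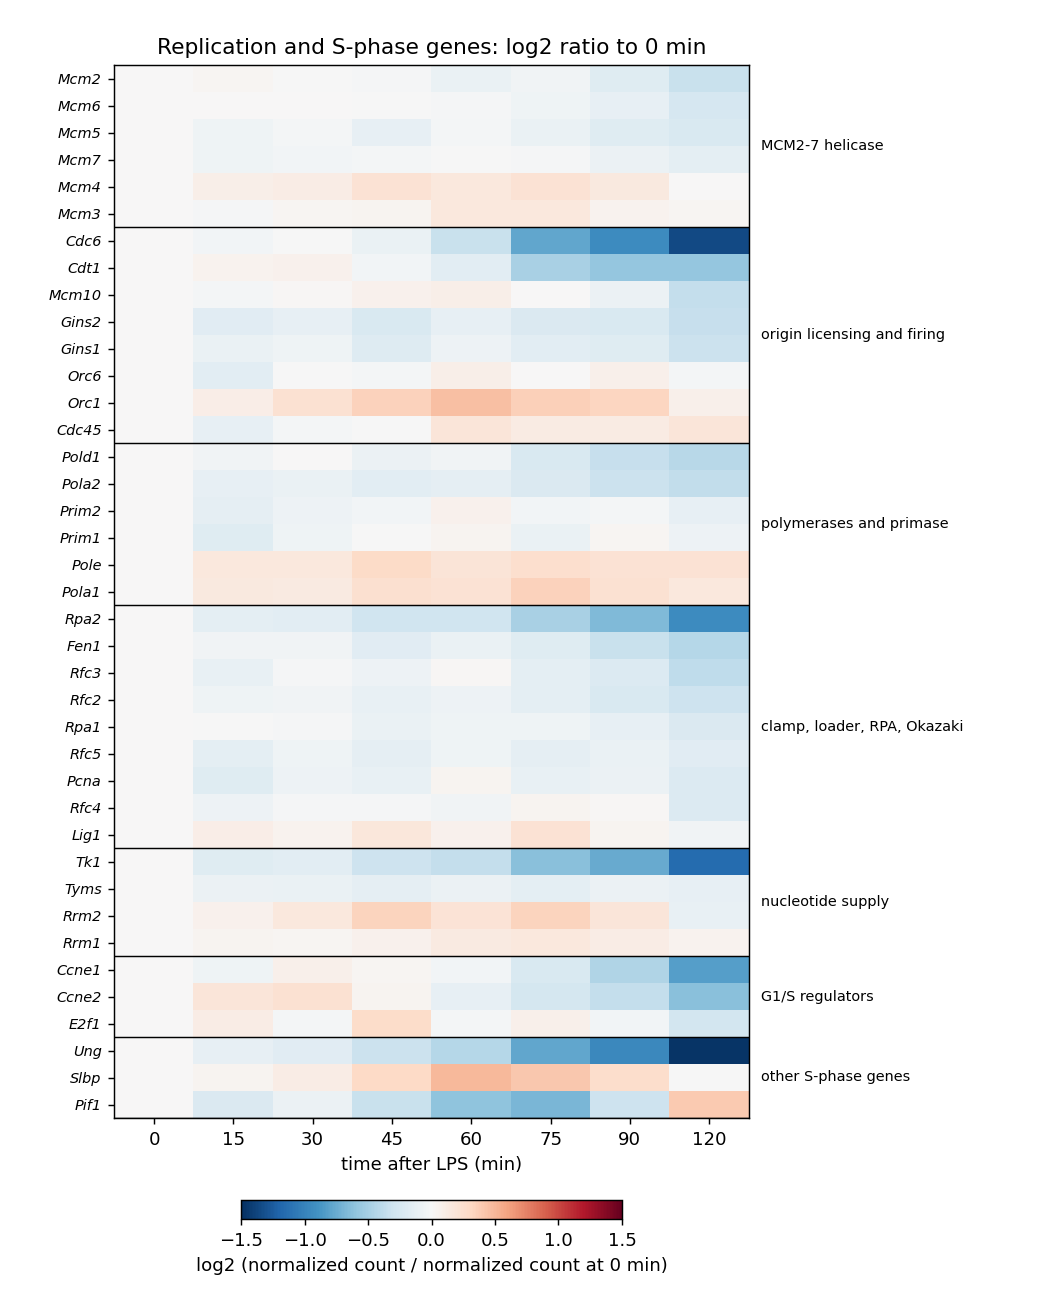
Colour gives the log2 ratio of the normalized count in each library (columns, time in min after LPS, evenly spaced and so not to scale) to the 0 min library, for the 39 genes (rows) grouped by role. Cdc6, Ung, Tk1 and Rpa2 turn dark blue by 120 min, Slbp and Orc1 are reddest at 60 min, and Pif1 passes from blue at 75 min to red at 120 min.

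Changes of more than 0.5 log2 units were counted without a test. At 60 min 1 gene, Pif1, was below this limit (all genes 7.47%), at 75 min 4 genes were (all genes 11.3%), and at 120 min 7 genes were (all genes 15.9%), so at this limit and scaling the shares of the 39 at 75 and 120 min were near those of all genes. They were not at a limit of 0.25, with 18 of the 39 and 28.9% of all genes below it at 120 min, or with total-count scaling, with 16 of the 39 and 25.3% of all genes below 0.5. The nearness at 0.5 also depended on genes with low counts. The lowest mean of the 39 was 1502.9 normalized counts (E2f1). A stricter filter on the mean, which all 39 passed, kept 8408 genes. Of these, 507 were below the limit of 0.5 at 75 min and 850 at 120 min. Both are smaller shares than the 4 and 7 of the 39, a difference that was not tested. At 120 min 0 of the 39 were above the limit, beside 16.8% of all genes. Pattern groups, which set single libraries against each other, were rebuilt here after the methods of the study. The group that the study itself gave each gene was not used. Cdc6, Ung, Tk1, Rpa2 and Ccne1 were in g2, the genes with a late minimum (5 of 39, all genes 10.1%). Of the 8408 genes kept by the stricter filter, 575 were in g2. With genes under a mean of 100 normalized counts left out of the fitted spread, 8 of 39 were in g2, beside 9.48% of all genes. None was in g1, the genes with a late maximum (all genes 9.75%), and the other 34 were in g0, the genes without a change past the limits.

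The promoters of the genes were searched for words of the E2F motif, because E2F factors act on this set of genes. RefSeq windows of 250 bases before to 50 bases after an annotated transcript start (GRCm38.p6) were at hand for 31 of the 39 genes. A word of the E2F motif (TTTGGCGC, TTTCCCGC, TTTCGCGC or TTTGCCGC, on either strand) stood in 11 of these 31 (35.48%), beside 3.25% of all 16234 genes with a window and 4.75% of the 8955 that were tested for a time trend. The NF-Y box CCAAT was in 58.06% of the 31, 42.07% of all genes and 43.51% of those tested. The Sp word GGGGCGGGG was in 22.58%, 17.78% and 24.51%, so that the 31 lay between the shares of all and of tested genes. The 250 bases before such a start are shown for 4 genes with an E2F word. They differ in their time course: Cdc6, which fell steeply, Mcm5 and Mcm6, which fell by little, and Orc1, which was highest at 60 min. The gene spans of Cdc6 and Orc1 on the plus strand begin at 98907709 and 108575705. The bases shown for these genes thus lie inside the gene spans, before a later annotated start. The span of Mcm5 begins at 75109468, near the end of its bases. Capitals mark the E2F words, which overlap in Mcm5 and, for the first pair, in Mcm6.
Cdc6, chr11:98907901-98908150, plus strand: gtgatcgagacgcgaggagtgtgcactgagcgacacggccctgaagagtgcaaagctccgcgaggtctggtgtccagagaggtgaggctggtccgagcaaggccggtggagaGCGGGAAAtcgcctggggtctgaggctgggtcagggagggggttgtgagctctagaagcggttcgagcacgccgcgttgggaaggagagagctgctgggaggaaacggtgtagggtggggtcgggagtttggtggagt
Mcm5, chr8:75109259-75109508, plus strand: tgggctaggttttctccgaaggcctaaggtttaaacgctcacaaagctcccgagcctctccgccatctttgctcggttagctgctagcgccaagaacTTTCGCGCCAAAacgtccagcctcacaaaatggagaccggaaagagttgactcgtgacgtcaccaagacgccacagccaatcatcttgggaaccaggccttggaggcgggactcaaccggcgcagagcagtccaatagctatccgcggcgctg
Mcm6, chr1:128359706-128359955, minus strand: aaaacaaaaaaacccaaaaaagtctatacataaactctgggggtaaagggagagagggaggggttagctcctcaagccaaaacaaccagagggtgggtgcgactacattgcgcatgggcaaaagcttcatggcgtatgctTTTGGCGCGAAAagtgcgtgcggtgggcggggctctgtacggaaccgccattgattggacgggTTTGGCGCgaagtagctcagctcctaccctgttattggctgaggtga
Orc1, chr4:108579204-108579453, plus strand: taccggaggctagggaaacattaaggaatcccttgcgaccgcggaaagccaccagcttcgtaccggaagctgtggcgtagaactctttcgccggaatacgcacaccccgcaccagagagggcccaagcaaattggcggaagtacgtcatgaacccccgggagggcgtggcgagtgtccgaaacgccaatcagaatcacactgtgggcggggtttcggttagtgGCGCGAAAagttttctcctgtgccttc
The other genes with such a word were Mcm3, Mcm7, Cdt1, Pola1, Pold1, Rfc3 and Lig1. Among the 7 steepest falling genes, Cdc6 and Cdt1 had a word, Ung, Tk1, Rpa2 and Ccne1 had none in this window, and Ccne2 had no window. A match of letters is a description and no evidence of binding.

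Of the 8 licensing and firing factors, 4 fell and 1 rose (all genes 23.7% each way). They held both the steepest falling and the steepest rising slope of the 39. Cdc6, the ATPase that loads the helicase with ORC (GRCm38, chr11:98907709-98923942), had 8645 normalized counts at 0 min, 8424 at 15, 8624 at 30, 8068 at 45, 6869 at 60, 5038 at 75, 4488 at 90 and 3374 at 120 min. It stayed close to its 0 min count for 45 min and was then lower in each library than in the one before. Its slope of -0.74 ± 0.09 log2 units per hour (SE) was the steepest of the 39 (edgeR adjusted p = 0.000348), and its count at 120 min was 0.390 of that at 0 min (0.376 to 0.405). Cdt1, its partner in loading (chr8:122568015-122573130), held 11511 normalized counts at 0 min, 11921 at 15, 12022 at 30, 11148 at 45, 10342 at 60, 8214 at 75, 7699 at 90 and 7701 at 120 min. It was lower in every library from 45 min on and did not go lower after 90 min, with a slope of -0.39 ± 0.06 (adjusted p = 0.00139) and a ratio of 0.669 (0.652 to 0.687) at 120 min.

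Orc1, the largest subunit of ORC (chr4:108575705-108616030), followed another course. It rose from 2539.8 normalized counts at 0 min over 2711 at 15, 2973 at 30 and 3233 at 45 to 3459 at 60 min and came down over 3249 at 75 and 3178 at 90 to 2679 at 120 min. The ratio to 0 min was 1.36 (1.30 to 1.43) at 60 min and 1.055 (1.003 to 1.109) at 120 min, and the line did not pass the test (slope 0.08 ± 0.09, adjusted p = 0.486). The number of Cdc6 reads per Orc1 read in the same library, which no scaling of libraries can change, fell from 3.40 at 0 min to 1.99 at 60 min and 1.26 at 120 min. It was lower in each library than in the one before.

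Cdc45, which joins MCM and GINS in the active helicase (chr16:18780447-18811972), was the 1 gene that rose. Its normalized counts were 9683 at 0 min, 8903 at 15, 9522 at 30, 9633 at 45, 10999 at 60, 10559 at 75, 10562 at 90 and 10994 at 120 min, so that the 4 libraries from 60 min on lay above the 4 before. The slope was 0.14 ± 0.04 (adjusted p = 0.0190), and the ratio at 120 min was 1.14 (1.11 to 1.16). The call was lost without the 15 min library (adjusted p = 0.0548), without the 120 min library (0.0563), with time in log minutes (0.0507) and with libraries scaled to total counts (slope 0.00373, adjusted p = 0.965) or to total counts without Rn45s (0.03, adjusted p = 0.483). Relative to the median slope of all genes the slope was 0.137 with size factors and with total counts. In log minutes the 1 rising gene was Pole (adjusted p = 0.0392).

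The GINS complex was not uniform. Gins1 and Gins2 fell with slopes of -0.13 ± 0.03 and -0.13 ± 0.04, and Gins2 was not called without the 0 min library. The other subunits were not among the 39 and were chosen after their values were seen: Gins4 fell with a slope of -0.12 ± 0.03 and Gins3 with -0.74 ± 0.09 (adjusted p = 0.0103 and 0.000421). Reads of Gins3 per read of Gins1 went from 1.09 at 0 min and 1.16 at 15 min to 0.872 at 30, 0.689 at 45, 0.556 at 60, 0.589 at 75, 0.630 at 90 and 0.507 at 120 min. Gins3 was thus down against its partner by 45 min, when the log2 ratio of Gins3 to 0 min was -0.84 and that of Cdc6 was -0.10.

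**Figure D2:**
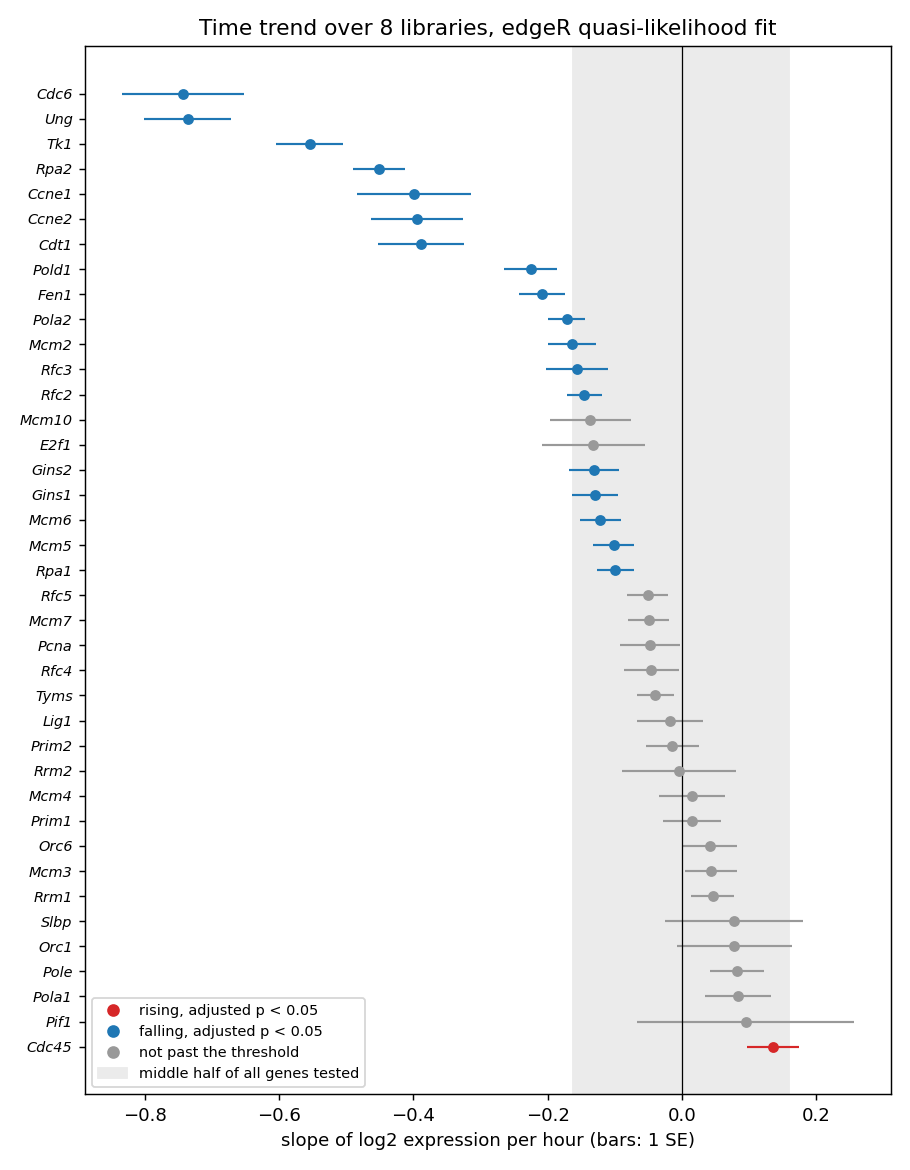
Points give the slope of log2 expression per hour over the 8 libraries for each of the 39 genes (rows), bars 1 SE, and the grey band the middle 50% of all 12170 genes tested. Cdc6 and Ung lie near -0.74, 7 genes stand apart to the left at -0.39 or below, and Cdc45 at 0.14 is the 1 coloured point to the right of 0.

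The MCM helicase, a ring of 6 related proteins that unwinds DNA at the fork, changed little. Of its 6 genes, Mcm2, Mcm5 and Mcm6 fell (all genes 23.7%), and Mcm3, Mcm4 and Mcm7 did not pass the test. Mcm2 held 41770.3 normalized counts at 0 min, 42653 at 15, 41758 at 30, 41238 at 45, 39031 at 60, 40357 at 75, 36961 at 90 and 33189 at 120 min. It stayed level for 45 min, and its slope was -0.16 ± 0.04 (adjusted p = 0.00561).

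Mcm6 held 52547 normalized counts at 0 min and between 50189 and 52877 up to 75 min, then 48420.4 at 90 and 44037 at 120 min (slope -0.12 ± 0.03, adjusted p = 0.0120). Mcm5 went from 72443 at 0 min to 61985 at 120 min (slope -0.10 ± 0.03, adjusted p = 0.0220), a call that was lost without the 90 min library (adjusted p = 0.0607) as well as without the 120 min library. The ratios of the 3 genes at 120 min were 0.795 (0.784 to 0.805) for Mcm2, 0.838 (0.828 to 0.848) for Mcm6 and 0.856 (0.847 to 0.864) for Mcm5.

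Mcm7 had a slope of -0.05 ± 0.03 (adjusted p = 0.214) and a ratio of 0.901 (0.889 to 0.914) at 120 min. Mcm4 had 32163 normalized counts at 0 min, 37288 at 45, 35878 at 60, 37280.3 at 75 and 32215 at 120 min, with its 2 highest values in the libraries with the highest Rn45s shares, whose part in them was not tested. Mcm3 had 59625 at 0 min, 66652 at 60 and 61043 at 120 min. Their slopes were 0.01 ± 0.05 and 0.04 ± 0.04 (adjusted p = 0.831 and 0.384). Both signs turned under total-count scaling. The 6 genes of 1 ring therefore lay between 0.795 and 1.02 of their 0 min counts at 120 min.

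**Figure D3:**
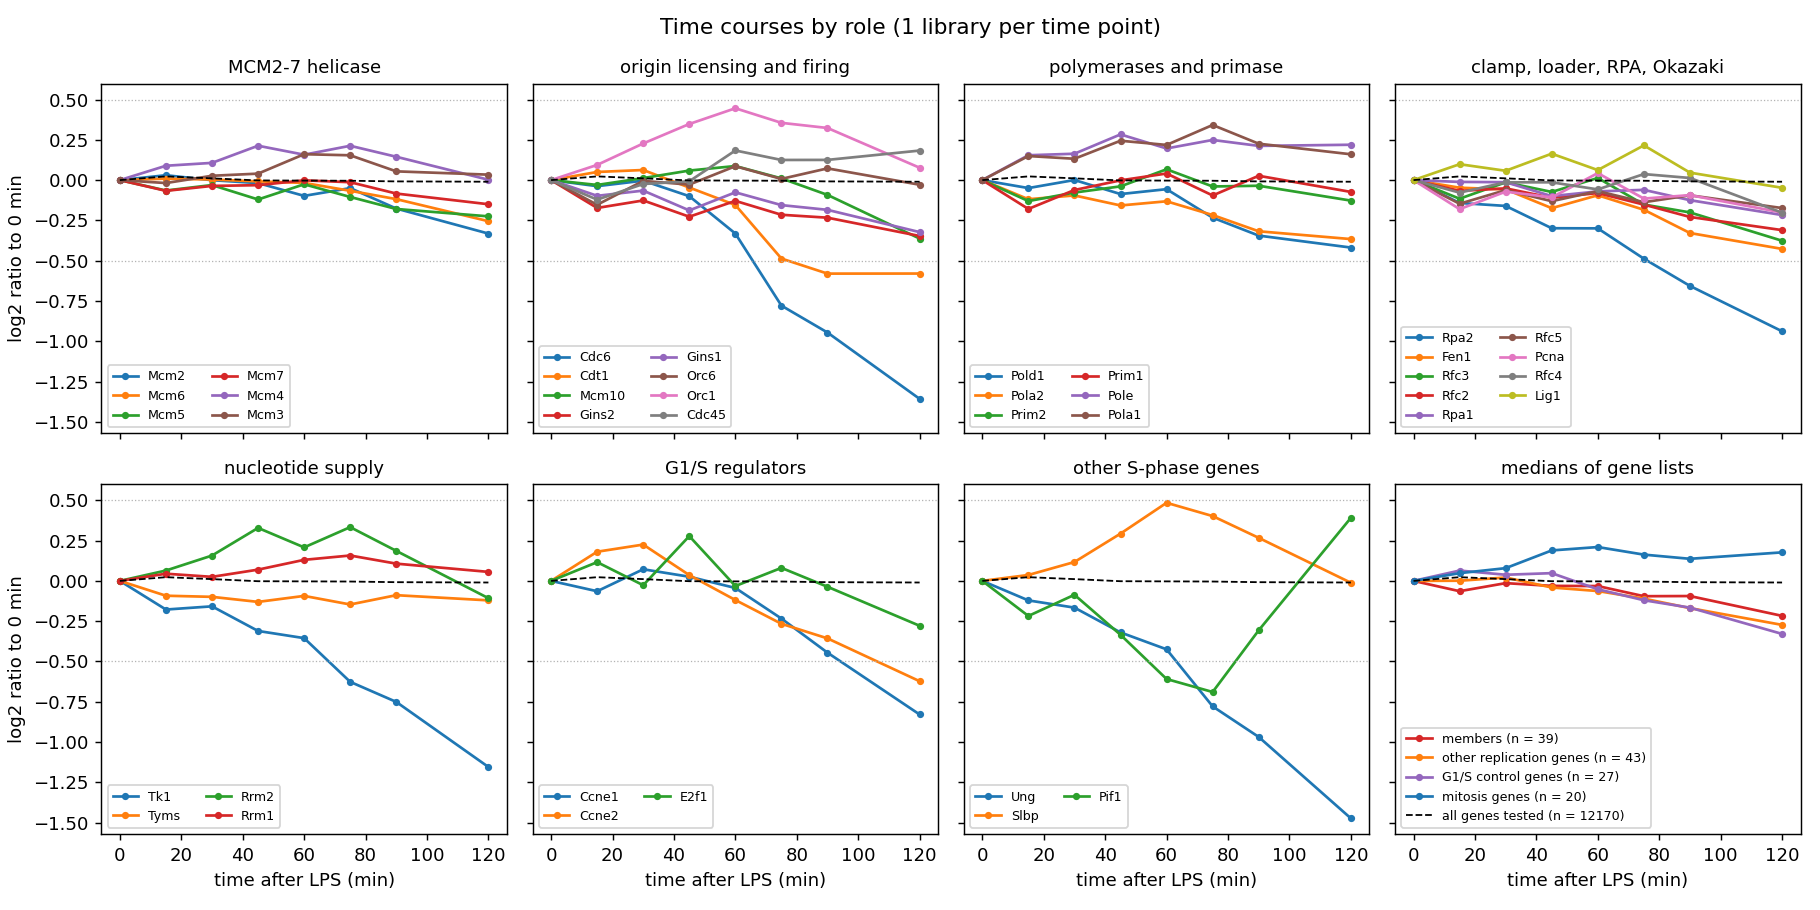
Lines give the log2 ratio of the normalized count to the 0 min library against time after LPS, 1 panel per role, with the median of all genes tested as a dashed line and the fold limit of 0.5 dotted; the last panel gives the medians of gene lists. Rpa2 and Ung go down through the whole course, and Tk1 does but for a small step up at 30 min. Cdc6 goes down from 60 min on, Ccne1 and Ccne2 come down together from 30 min on, and Slbp, Orc1 and Pif1 bend.

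Among polymerase genes, 2 of 6 fell, beside 23.7% of all genes. The first was Pold1, the catalytic subunit of the lagging-strand polymerase (-0.23 ± 0.04, adjusted p = 0.00189). The other was Pola2, the accessory subunit of the polymerase that starts each strand (-0.17 ± 0.03, adjusted p = 0.00126). The catalytic subunits Pola1 and Pole had slopes of 0.08 ± 0.05 and 0.08 ± 0.04 (adjusted p = 0.190 and 0.124). Pola1 had 14450.3 normalized counts at 0 min, between 15840.2 and 18317 in the other libraries, and its highest value at 75 min. Pole had 12318 at 0 min and between 13708 and 14994 later. Both genes were thus lowest in the unstimulated library, while Pola2 was highest there. Pole and Pola1 have the longest transcripts of the 39 (7163 and 5346 bases), and correction for transcript length took their log2 ratios at 120 min from 0.22 to 0.023 and from 0.16 to 0.071. Reads of Pola2 per read of Pola1 went from 0.728 at 0 min to 0.551 at 45 min and 0.505 at 120 min, with the lowest value, 0.494, at 75 min. The primase genes Prim1 and Prim2 had slopes of 0.02 ± 0.04 and -0.01 ± 0.04.

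Of the 9 genes of the sliding clamp, its loader, the single-strand binding protein RPA and Okazaki fragment joining, 5 fell (all genes 23.7%). The slopes of all 9 were below 0, beside 6118 of the 12170 genes tested. Rpa2, the middle subunit of RPA (chr4:132768360-132778746), had the steepest slope of the 9. It had 14322 normalized counts at 0 min, 12980.0 at 15, 12817 at 30, 11644 at 45, 11638 at 60, 10214 at 75, 9085 at 90 and 7475 at 120 min. Each library was lower than the one before, the slope was -0.45 ± 0.04 (adjusted p = 0.000103), and the ratio at 120 min was 0.522 (0.509 to 0.535). The large subunit Rpa1 fell with a slope of -0.10 ± 0.03 (adjusted p = 0.0172), and the number of Rpa2 reads per Rpa1 read in the same library went from 0.408 at 0 min to 0.348 at 60 min and 0.247 at 120 min.

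Pcna, the clamp that holds the polymerase on DNA, did not pass the test (-0.05 ± 0.04, adjusted p = 0.414). It had 81092 normalized counts at 0 min, 71576 at 15, 77165 at 30, 75290.3 at 45, 83567 at 60, 74893 at 75, 76021 at 90 and 70547 at 120 min, with its highest value at 60 min and its lowest at 120 min. Fen1, the nuclease that trims Okazaki fragments, fell by 0.21 ± 0.03 log2 units per hour (adjusted p = 0.0014), and the loader genes Rfc2 and Rfc3 fell with slopes of -0.15 and -0.16, of which Rfc3 was not called after correction for transcript length. Rfc4, Rfc5 and the DNA ligase Lig1 had slopes between -0.05 and -0.02.

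In nucleotide supply, 1 of 4 genes fell, near the 23.7% of all genes. Tk1, the thymidine kinase of the salvage route (chr11:117815519-117826087), had 22963 normalized counts at 0 min, 20300.4 at 15, 20582 at 30, 18513 at 45, 17951 at 60, 14874 at 75, 13644 at 90 and 10314 at 120 min. Apart from a slightly higher count at 30 than at 15 min, each library was lower than the one before. The slope was -0.55 ± 0.05 (adjusted p = 0.000115) and the ratio at 120 min was 0.449 (0.440 to 0.459). Tyms, which makes thymidylate from deoxyuridylate, had a slope of -0.04 ± 0.03 (adjusted p = 0.259).

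The ribonucleotide reductase subunits Rrm1 and Rrm2, which make deoxyribonucleotides, did not pass the test (0.05 ± 0.03 and 0.00 ± 0.09, adjusted p = 0.275 and 0.972). Rrm2 had 22043 normalized counts at 0 min, 23048 at 15, 24581 at 30, 27684 at 45, 25460.5 at 60, 27776 at 75, 25080.5 at 90 and 20463 at 120 min. Its 2 highest values fell in the libraries with the highest Rn45s shares, 16.6% at 45 min and 20.5% at 75 min; the part of that share in the values was not tested. Rrm1 moved between 45214 at 0 min and 50430 at 75 min.

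Both cyclin E genes fell. Ccne1 (chr7:38097984-38107490) had 6974 normalized counts at 0 min, 6670.0 at 15, 7331 at 30, 7100 at 45, 6765 at 60, 5930.2 at 75, 5121 at 90 and 3926 at 120 min, and Ccne2 (chr4:11190433-11204779) had 9229 at 0 min, 10463 at 15, 10789 at 30, 9462 at 45, 8500.2 at 60, 7674 at 75, 7207 at 90 and 5995 at 120 min. Both had their highest value at 30 min and were lower in each library from 45 min on than in the one before. The slopes were -0.40 ± 0.09 for Ccne1 and -0.40 ± 0.07 for Ccne2 (adjusted p = 0.00518 and 0.00182), and the ratios at 120 min were 0.563 (0.543 to 0.583) and 0.650 (0.631 to 0.669). Ccne1 lost its call with time in log minutes (adjusted p = 0.0735), with the libraries before 60 min against the later ones (0.0835) and in the 0, 30, 60 and 120 min libraries alone (0.0637, an alternative chosen after seeing the data), where Ccne2 lost its call too (0.0768).

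E2f1, the activating E2F factor of the list (chr2:154559400-154569892), did not pass the test (-0.13 ± 0.08, adjusted p = 0.191). It had 1482 normalized counts at 0 min, 1606 at 15, 1455 at 30, 1797 at 45, 1449.5 at 60, 1567 at 75, 1445 at 90 and 1222 at 120 min. The value at 45 min was the highest and that at 120 min the lowest. With the Rn45s share of each library as a covariate, E2f1 fell (-0.17, adjusted p = 0.0278), and so it did with libraries scaled to total counts (-0.27, adjusted p = 0.00838).

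The 3 remaining genes had 3 different courses. Ung, the uracil DNA glycosylase that removes uracil from new DNA (chr5:114130366-114139321), had 5809 normalized counts at 0 min, 5342 at 15, 5178 at 30, 4654 at 45, 4328 at 60, 3386 at 75, 2969 at 90 and 2092 at 120 min. It was lower in each library than in the one before, with a slope of -0.74 ± 0.06 (adjusted p = 0.000111), and its ratio of 0.360 (0.344 to 0.377) at 120 min was the lowest of the 39.

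Slbp, which binds the stem-loop at the end of histone mRNAs (chr5:33640055-33652574), had 16955 normalized counts at 0 min, 17390.4 at 15, 18389 at 30, 20777 at 45, 23722 at 60, 22407 at 75, 20403 at 90 and 16820 at 120 min. It thus went up to 1.40 (1.37 to 1.43) of its 0 min count at 60 min and back to 0.992 (0.973 to 1.01) at 120 min, a course that a line does not capture (slope 0.08 ± 0.10, adjusted p = 0.568). The highest normalized count lay at 60 min for 10 of the 39 genes, beside 4.8% of all genes. Not all of these were clear peaks. The ratio to 0 min at 60 min ran from 1.01 (0.977 to 1.04) for Rfc3 to 1.36 for Orc1 and 1.40 for Slbp, the 2 largest. The Rn45s share was 8.27% at 60 min, between 16.6% at 45 and 20.5% at 75 min. Its part in these highest values was not tested.

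Pif1, a helicase that resolves G-quadruplexes (chr9:65587150-65595967), took the opposite course. It had 3576 normalized counts at 0 min, 3075 at 15, 3369 at 30, 2836 at 45, 2345 at 60, 2218 at 75, 2891 at 90 and 4689 at 120 min. From 75 to 120 min it increased 2.12-fold (2.00 to 2.24), to 1.31 (1.26 to 1.37) of its 0 min count, the highest ratio of the 39 at 120 min. The line did not pass the test (0.09 ± 0.16, adjusted p = 0.660), and without the 120 min library the slope was -0.33.

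The 7 steepest falling genes lay above the middle of all genes in level and across much of the range of the 39. Per length, with reads scaled to transcript length and library total (rpkm), the highest of the 39 in the unstimulated library were Pcna at 475, Mcm5 at 190, Mcm3 at 175, Mcm6 at 161 and Tk1 at 142 rpkm. The lowest were E2f1 at 4.82, Orc1 at 7.49, Gins2 at 8.51 and Pif1 at 8.63 rpkm. Of the steep fallers, Rpa2 stood at 70.2, Cdt1 at 46.7, Ccne1 at 31.0, Ccne2 at 27.3, Ung at 24.2 and Cdc6 at 16.7 rpkm. From Cdc6 to Tk1 these are the percentiles 66.7 to 96 of all genes tested, and none of the 4 lowest of the 39 fell that steeply.

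**Figure D4:**
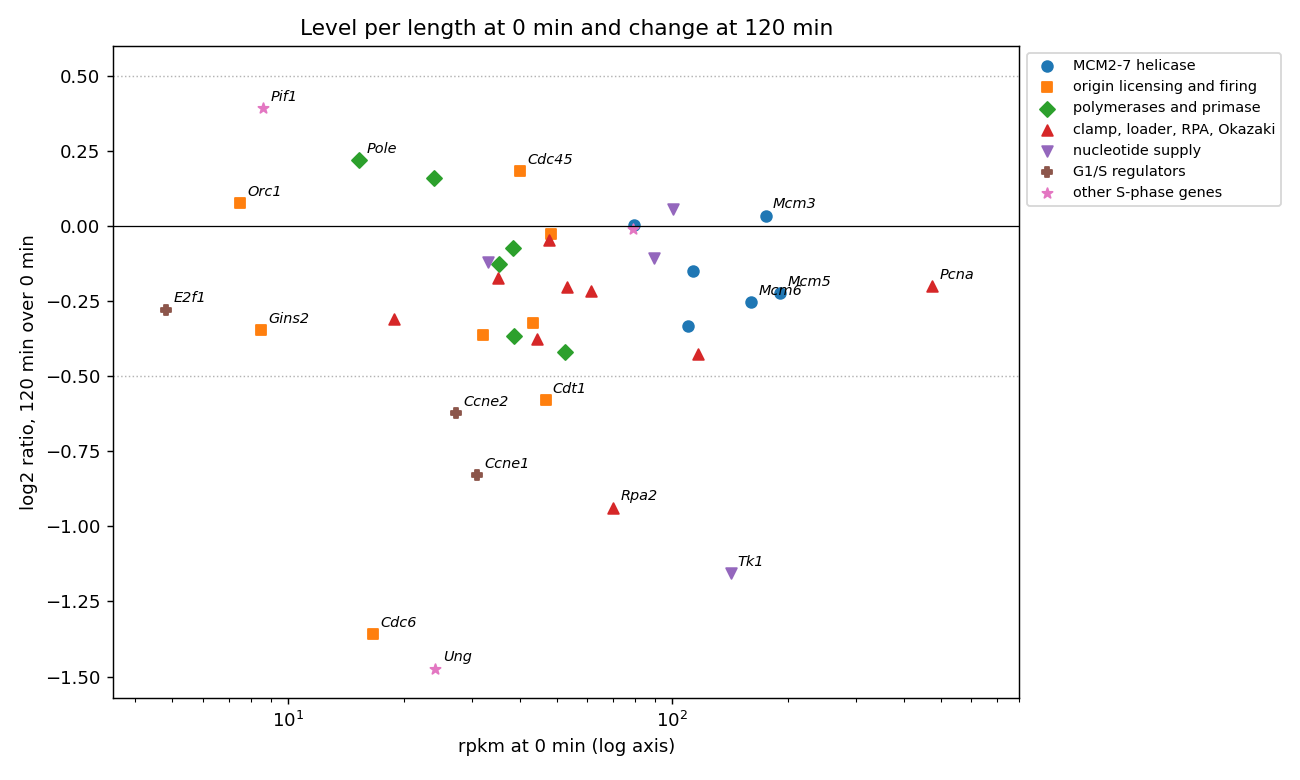
Points give the level of each of the 39 genes at 0 min in rpkm (x axis, log scale) and its log2 ratio of the 120 min to the 0 min library (y axis), with marks by role and dotted lines at the fold limit of 0.5. Tk1 at 142 rpkm and Cdc6 at 16.7 rpkm both lie below -1, whereas Pcna at 475 rpkm lies at -0.20.

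The time courses of the 39 genes were alike for many pairs but not for all. Over the 8 libraries, Pearson's r of log2 normalized counts had a median of 0.416 over the 741 pairs (quartiles -0.073 and 0.787), beside -0.005 for pairs of one of the 39 with another gene, and 29.7% of the pairs were below 0. All these points share the same 8 libraries. Rfc3 had the highest median r with the other genes of the set (0.785) and Cdc45 (-0.387) and Pif1 (-0.352) the lowest.

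Other genes of replication also fell more often than they rose. Of 43 further genes of forks, origins, chromatin assembly and nucleotide supply, 24 fell and 2 rose (all genes 23.7% each way), with a median log2 ratio of -0.273 at 120 min. The steepest were Dtl, which directs the destruction of Cdt1 in S phase (-0.78 ± 0.16, adjusted p = 0.00475), Gins3, and the fork protein Wdhd1 (-0.69 ± 0.09, adjusted p = 0.000572). Dtl, at 0.207 log2 units above its 0 min count at 45 min and 1.54 below it at 120 min, fell late like Cdc6. The 2 genes that rose were the polymerase subunit Pole4 (0.17 ± 0.03, adjusted p = 0.00246) and the origin subunit Orc4 (0.10 ± 0.03, adjusted p = 0.0389).

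Of 27 genes that control the step from G1 to S, 14 fell and 4 rose (all genes 23.7% each way), with a median log2 ratio of -0.329 at 120 min. E2f2, an activating E2F factor, fell by 1.30 ± 0.19 log2 units per hour (adjusted p = 0.000735) and stood at a log2 ratio of -2.20 at 120 min, beside -0.28 for E2f1. The inhibitors of cyclin-dependent kinases Cdkn2d and Cdkn1b fell (-0.79 ± 0.08 and -0.76 ± 0.09, adjusted p = 0.000166 and 0.000296), while the inhibitor Cdkn1a rose (1.30 ± 0.26, adjusted p = 0.00354). Myc, a growth factor-induced transcription factor, rose most (2.82 ± 0.33, adjusted p = 0.00028), and Cdk6, a kinase of G1, rose with a slope of 0.57 ± 0.12 (adjusted p = 0.00531) and a log2 ratio of 1.32 at 120 min.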

How the data were processed

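RNA from RAW264.7 cells was depleted of ribosomal RNA (Ribo-Zero) and made into stranded libraries. The authors mapped reads of 58 bases with Bowtie (at most 2 mismatches; version not given in the sources used here) to RefSeq transcripts of mm10, discarded reads that matched more than 1 gene symbol and deposited raw read counts per gene. The submitters' processing notes also name CASAVA 1.8.2 and DESeq 1.10.1. From the deposited counts, slopes over time were fitted with edgeR 4.0.16 (R 4.3.3) to genes with a mean of at least 10 normalized counts. Pattern groups followed the methods of the study, with edgeR's exact test in place of DESeq and an unadjusted p limit of 0.05. Lengths were those of the longest matching GENCODE vM21 transcript, and gene positions, gene names and promoter windows those of RefSeq (GRCm38.p6). All 39 genes matched.

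The genes, lists and tests were chosen with earlier results of these data known. Described in full were the MCM genes, E2f1, Ccne1, Ccne2, Pcna, Rrm1, Rrm2, Cdc6, Cdt1, the 6 steepest slopes in each direction and the extreme ratios at 120 min, and from other lists the 3 steepest in each direction past the test. Alternatives covered scaling, filters, the test (DESeq2 1.42.0, limma 3.58.1), the time model and each library left out.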

Additional observations from a re-analysis of the deposited data

How the results depend on the processing

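The count of 18 falling and 1 rising genes was kept with TMM factors, DESeq2, limma-trend and other filters on low counts. With total counts, and with total counts without Rn45s, 0 rose, 2 were below the fold limit at 60 min and 16 at 120 min (all genes 25.3% and 24.9%), 8 were in g2 (13.1% and 13.3%), and the medians were -0.127 and -0.132 at 60 min and -0.418 and -0.41 at 120 min. A filter at a mean of 100 gave 8 in g2 (all genes 9.48%), and Benjamini-Hochberg adjustment 3 (3.99%). Correction for transcript length put 1 above the limit at 60 min, with a median of 0.005. Libraries before 60 min against later ones gave 6 falling (all genes 15.2%), near the share of all genes; the 90 and 120 min libraries together gave a median of -0.158. A fold limit of 1 left 0 below it at 60 min and 3 at 120 min (all genes 6.03%); a limit of 0.25 put 5 below and 2 above it at 60 min, and 18 and 1 at 120 min (28.9% and 29%). Leaving out 1 library at a time gave 11 to 18 falling and 0 to 3 rising (all genes 19.6% to 24% and 19.7% to 25.1%). The 0, 30, 60 and 120 min libraries alone, an alternative chosen after seeing the data, gave 7 falling and 0 rising (8.59% and 12.3%). The causes of these changes were not tested.

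Slopes that turned sign had not passed the test. With total counts they were -0.09 (Mcm3), -0.12 (Mcm4), -0.0871 (Rrm1), -0.0608 (Slbp), -0.0581 (Orc1), -0.05 (Pole), -0.0505 (Pola1) and -0.025 (Pif1). Without Rn45s in the totals they were -0.0627, -0.0919, -0.0602, -0.0292, -0.0285, -0.0245, -0.0229 and -0.00969. Rrm2 turned to 0.0298 with length correction, 0.0209 before against after 60 min and 0.0359 in log minutes, where Pif1 turned to -0.0812 and -0.00446. Mcm4 was at -0.00529 with the Rn45s covariate and -0.00706 in the 4 libraries. With 1 library left out, the slopes ran from -0.0357 to 0.104 for Mcm4, -0.0045 to 0.246 for Orc1, -0.0811 to 0.165 for Rrm2 and -0.33 to 0.222 for Pif1. Among named genes, 23 calls were lost and 10 gained over all alternatives.

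No paired analysis was possible because each time point has 1 library and the labels carry no replicate numbers. No time point had a second library, which limits every comparison here.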

Other observations

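Genes of mitosis did not share the course of the replication genes. Of 20 such genes, 4 fell and 9 rose (all genes 23.7% each way), so that only the rising share stood apart from that of all genes. Their median log2 ratio was 0.21 after 60 min of LPS and 0.177 after 120 min, where the 39 replication and S-phase genes were at -0.032 and -0.217. The steepest that rose were Cenpe, the kinetochore motor (0.40 ± 0.07 log2 units per hour, edgeR adjusted p = 0.00143), the proliferation marker Mki67 (0.33 ± 0.10, adjusted p = 0.0203) and the kinetochore protein Cenpf (0.28 ± 0.09, adjusted p = 0.0296). Cenpe, Mki67 and Cenpf already stood at log2 ratios of 0.37, 0.51 and 0.43 at 15 min. Mki67 and Cenpf were at 0.83 and 0.74 at 45 min, a library with an Rn45s share of 16.6%. Values of the mitosis genes after correction for transcript length were not examined, so the part of length in their rise was not tested. The steepest that fell were the mitotic kinases Ttk (-0.35 ± 0.06, adjusted p = 0.00207) and Plk1 (-0.19 ± 0.05, adjusted p = 0.0203) and the checkpoint gene Bub1b (-0.18 ± 0.03, adjusted p = 0.00198). The difference between the lists was not tested.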
